A study of Homo sapiens with 8 samples.

Results

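RPE-1 cells, a telomerase-immortalised line of human retinal pigment epithelium, were exposed for 6 h to all-trans-retinal (atRAL) with or without extracellular vesicles (EV), and the library that received both is set here against the library that received atRAL alone. All-trans-retinal is the aldehyde that bleached visual pigment releases. The pigment epithelium normally helps to recycle it to the 11-cis form, and free retinal is reactive toward amines and toxic in excess. Extracellular vesicles are membrane particles shed by cells, and those used here came from mesenchymal stem cells of the tonsil. The groups were atRAL plus EV at 6 h (25 µM atRAL, 2000000000 particles per ml), atRAL at 6 h (25 µM), EV at 6 h (2000000000 particles per ml) and an untreated control at 6 h, together with the same 4 conditions at 1 h. Each condition treated 2500000 cells of the same line and was sequenced as 1 poly(A) library, so no difference below has a replicate check. No label used here gives the vesicle donor or the number of vesicle preparations.

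The comparison covered the 12508 genes, of 46427 in the table, that had at least 100 counts in either library, after 87 readthrough genes with enough counts had been set aside. Of these, 8268 had at least 1000 counts in either library. Total counts ran from 62093395 to 71822269 in the 4 libraries of 6 h and from 45566237 to 70916624 at 1 h. The cells carried the markers of pigment epithelium only in part. Of 17 markers of pigment epithelium, 5 reached 100 counts in the pair, among them OTX2 and MITF, transcription factors of that tissue. A further 6 were at 0 in both libraries (TYR, TYRP1, DCT, TTR, SIX6 and RAX), and RPE65, the retinoid isomerase, had no count with atRAL plus EV and 2 counts with atRAL. Of 12 epithelial markers, 4 reached 100 counts, KRT8 and KRT18 among them, and 5 were at 0 in both libraries. That list summed to 574 FPKM in atRAL plus EV and 525 FPKM in atRAL. Of 14 mesenchymal stromal markers, 9 reached 100 counts, with a summed level of 287 FPKM in atRAL plus EV and 273 FPKM in atRAL. Of 8 endothelial markers, 2 reached 100 counts. With atRAL plus EV and with atRAL, ROBO4 had 214 and 303 counts and VWF had 142 and 35. Of 12 leukocyte and lymphoid markers, 6 were at 0 in both libraries, among them PTPRC, CD3E, CD3D, MS4A1 and NKG7. The list summed to 47.0 FPKM in atRAL plus EV and 49.8 FPKM in atRAL. CD68, a lysosomal protein gene that many cell types express, had 5671 and 5875 counts, CD79A had 42 and 23, and CD74 had 23 and 37. Of the 9 photoreceptor and neural retina markers, 7 were at 0 in both.

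With vesicles, 152 genes were at least 2-fold higher (1.22% of the 12508) and 191 were at least 2-fold lower (1.53%) than in atRAL alone, 343 in all (2.74%). At 4-fold the counts were 21 and 22. Most genes were close to equal, with 11250 (89.9%) inside 1.5-fold and a median log2 ratio of 0.02. The ratios are of TMM-scaled counts relative to library size (CPM), where TMM is a scaling that sets aside the most extreme genes. The 95% counting interval, which covers counting error only, lay wholly above or below 0 on the log2 scale for all 343 of these genes. The count threshold and the 2-fold rule nearly fix that outcome in advance, so it adds no support. Protein-coding genes made up 126 of the higher and 168 of the lower genes, and long non-coding RNAs 19 and 20. The count threshold was passed in 1 library only by 47 of the higher and 87 of the lower genes, while 105 and 104 passed it in both. Among the 144 genes whose larger count was 100 to 109, just inside the threshold, 14 differed at least 2-fold, and among the 153 genes at 90 to 99, just outside, 12 did. The spans of 202 of the 343 genes overlap another gene, as do those of 7554 of the 12508, and no source used here gives the strand setting of the authors' counting.

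A second reading borrowed its spread from elsewhere in the series. An edgeR quasi-likelihood model gave each library of 6 h a level of its own and took the spread from how far the 4 libraries of 1 h depart from additive atRAL and EV effects. It leaves 1 residual degree of freedom a gene and assumes that libraries of 6 h vary like those of 1 h, which no library here tests. It called 987 genes higher (5.79% of 17044 tested) and 909 lower (5.33%) at an adjusted p below 0.05, 1896 in all (11.1%), of which 948 and 851 are among the 12508. Members of every list below come from the 12508, so 948 and 851 of 12508 are the share to set beside each list count. No list was tested as a set, and a list with few calls may not differ from that share. Of the genes at least 2-fold apart, 144 of the 152 higher and 165 of the 191 lower were called. Below, "rose", "fell" and "called" are used only of genes that passed this edgeR test, and every adjusted p comes from it. In bulk RNA a change in some cells and a change in all of them cannot be told apart.

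**Figure D1:**
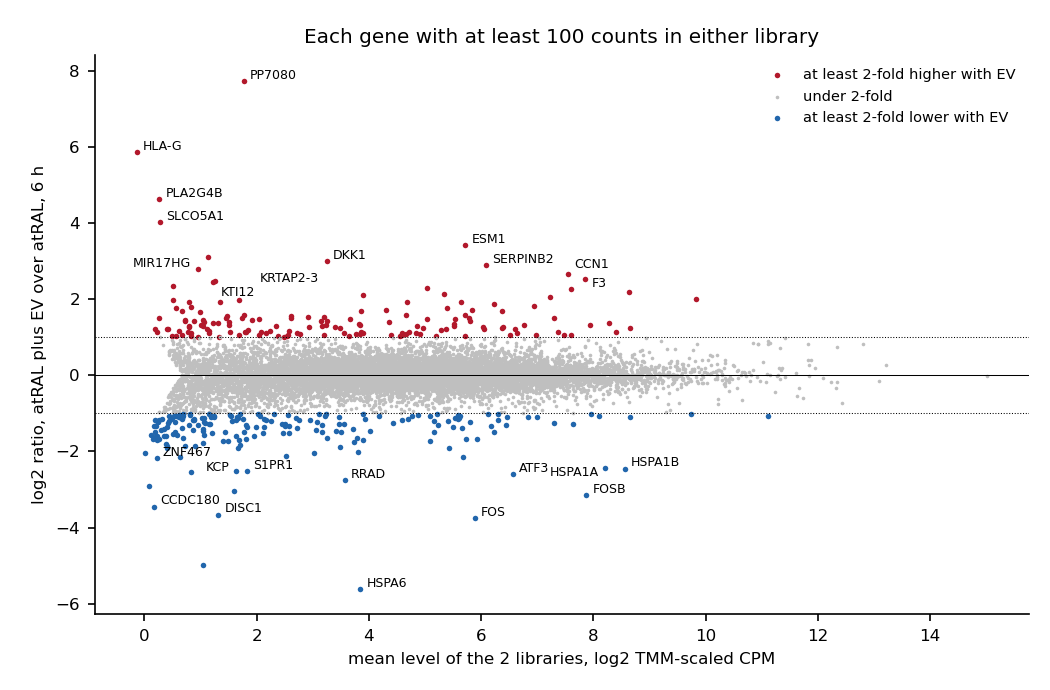
Log2 ratio of atRAL plus EV over atRAL at 6 h (vertical axis) against the mean level of the 2 libraries in log2 TMM-scaled CPM (horizontal axis), 1 point per gene. Red points are the 152 genes at least 2-fold higher with EV, blue points the 191 at least 2-fold lower, dotted lines mark 2-fold, and the 12 highest and 12 lowest named genes are labelled.

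The genes furthest above the atRAL library included several for secreted and cell-surface proteins. ESM1, an endothelial proteoglycan gene induced by growth factors, stood at 96.2 CPM with atRAL plus EV and 8.99 CPM with atRAL. EV alone gave 31.1 CPM and the control 6.74 CPM, so ESM1 was higher with vesicles in both pairs of 6 h. The atRAL plus EV value was 10.7-fold the atRAL value (95% counting interval 9.82 to 11.7; adjusted p = 6.5e-08). SERPINB2, which encodes plasminogen activator inhibitor 2, was also higher with vesicles in both pairs, at 119.6 CPM with atRAL plus EV, 16.2 CPM with atRAL, 285 CPM with EV and 45.8 CPM in the control. Its ratio was 7.38-fold (6.93 to 7.91; adjusted p = 2.9e-05).

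For further genes, as for SERPINB2, the atRAL library was the lowest of the 4. DKK1, a secreted inhibitor of Wnt signalling, had 16.9 CPM with atRAL plus EV, 2.09 CPM with atRAL, 42.1 CPM with EV and 29.5 CPM in the control. CCN1, a matrix-associated signalling protein also known as CYR61, had 323 CPM with atRAL plus EV, 51.4 CPM with atRAL, 572 CPM with EV and 664 CPM in the control. F3, tissue factor, the cell-surface starter of coagulation, had 395, 68.3, 463 and 337 CPM in that order. Most genes named in this report were picked by their ratio to the single atRAL library, which favours an extreme value in that library. Its place among the 4 is therefore no separate support. The atRAL library was the lowest of the 4 for all of DKK1, CCN1 and F3. They rose 7.96-fold (6.72 to 9.75), 6.28-fold (6.06 to 6.53) and 5.78-fold (5.6 to 5.98), with adjusted p of 3.6e-07, 6.5e-08 and 6.5e-08. MIR17HG, the host transcript of the miR-17-92 cluster, had 3.39 CPM with atRAL plus EV and 0.464 CPM with atRAL, and KTI12, an Elongator-associated gene, 4.05 and 0.704 CPM. Both were called (adjusted p = 7.3e-05 and 3.3e-05), and both spans overlap another gene. KRTAP2-3, a keratin-associated protein gene from a family of near-identical copies among which reads may be split, had 3.99 CPM with atRAL plus EV and 0.704 CPM with atRAL.

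The 4 highest ratios belonged to genes with few or no counts in the atRAL library and uneven values across the series. PP7080, a long non-coding RNA, had 422 counts with atRAL plus EV and 0 with atRAL, and HLA-G, a non-classical HLA class I gene with close relatives, had 113 and 0. Against a floor of 3 counts in the atRAL library these are at least 142-fold and at least 38-fold higher. Neither was called, and a fitted fold change against 0 is no bound. PP7080 also had 0.388 CPM with atRAL plus EV and 8.64 CPM with atRAL at 1 h, the reverse order. HLA-G at 1 h had 2.2 CPM with atRAL plus EV, none with atRAL, none with EV and 1.31 CPM in the control. PLA2G4B, a phospholipase A2 gene that overlaps its neighbour JMJD7, had 145 counts with atRAL plus EV and 4 with atRAL at 6 h, but 0.0288 and 3.46 CPM at 1 h. SLCO5A1, an organic anion transporter family gene, had 143 and 7 counts at 6 h, and at 1 h it had 2.52 CPM with atRAL plus EV, 0 with atRAL, 2.81 CPM with EV and 0 in the control. PLA2G4B and SLCO5A1 were called (adjusted p = 0.00013 each), and all 4 genes overlap another gene.

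**Figure D2:**
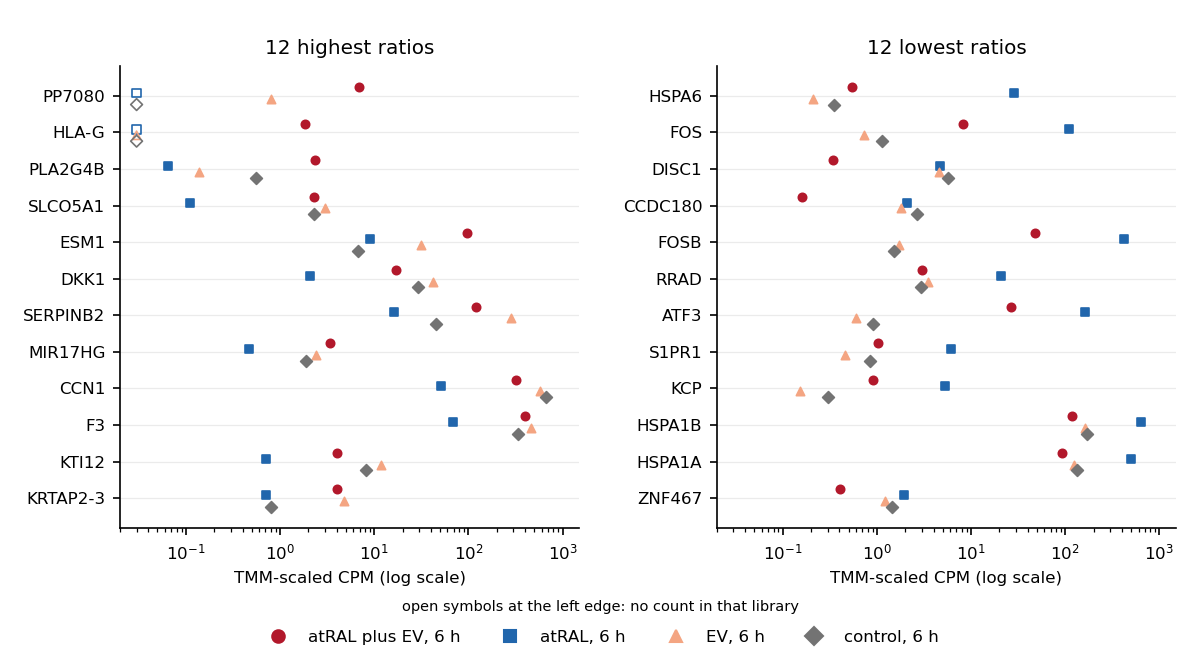
TMM-scaled CPM on a log axis in the 4 libraries of 6 h, 1 library per condition, for the 12 genes with the highest ratio (left) and the 12 with the lowest (right) of atRAL plus EV over atRAL. The red circle (atRAL plus EV) lies to the right of the blue square (atRAL) in the left panel and to its left in the right panel, and for HSPA1A, HSPA1B and RRAD it lies beside the EV and control symbols.

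Among the 12 named genes with the lowest ratios, HSPA6, an inducible heat shock gene, and FOS, an early-response transcription factor, came first. DISC1 (log2 ratio -3.66) and CCDC180 (-3.45) followed and are described below. HSPA6, an Hsp70 gene that is nearly silent until protein damage, had 0.549 CPM with atRAL plus EV, 28.3 CPM with atRAL, 0.209 CPM with EV and 0.355 CPM in the control. It stood out in the atRAL library alone and was 48.7-fold lower with vesicles (36.7 to 74.6; adjusted p = 3.4e-07). FOS had 8.14 CPM with atRAL plus EV, 110 CPM with atRAL, 0.738 CPM with EV and 1.13 CPM in the control, a 13.5-fold lower value with vesicles (12.3 to 14.8; adjusted p = 0.04). FOSB, its close relative, had 47.4, 421, 1.73 and 1.53 CPM in the same libraries, but its difference was not called (adjusted p = 0.092). ATF3, a transcription factor of cell stress, had 26.8 CPM with atRAL plus EV, 163 CPM with atRAL, 0.599 CPM with EV and 0.9 CPM in the control (adjusted p = 0.0023). FOS, FOSB and ATF3 were higher in both libraries with atRAL than in both without, and with vesicles they stood between the atRAL library and the control.

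RRAD, a small GTPase of the RGK family, had 3.02 CPM with atRAL plus EV, 20.7 CPM with atRAL, 3.45 CPM with EV and 2.92 CPM in the control, so that the library with both agents was close to those without atRAL. S1PR1, a receptor for sphingosine 1-phosphate, had 1.03 CPM with atRAL plus EV and 6.08 CPM with atRAL, and KCP, a secreted modulator of BMP signalling, had 0.904 and 5.28 CPM. All of RRAD, S1PR1 and KCP fell (adjusted p from 3.8e-06 to 0.00071). DISC1, a scaffold protein gene, behaved otherwise, with 0.339 CPM with both agents, 4.65 CPM with atRAL, 4.57 CPM with EV and 5.66 CPM in the control. CCDC180, a coiled-coil protein gene, likewise had 0.161 CPM with both agents, 2.08 CPM with atRAL, 1.81 CPM with EV and 2.65 CPM in the control. In DISC1 and CCDC180 the library with both agents was the low one, at 21 and 10 counts, and both spans overlap another gene. ZNF467, a zinc finger gene, had 0.404 CPM with atRAL plus EV and 1.92 CPM with atRAL.

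Heat shock proteins are chaperones that bind unfolded protein, and HSF1 switches on the inducible ones through heat shock elements in their promoters. Of 22 cytosolic heat shock and co-chaperone genes, 4 were at least 2-fold lower and 0 higher. The test called 8 lower and 0 higher, against 851 and 948 of the 12508 genes. The list's median log2 ratio was -0.24, against 0.02 over the 12508 genes. HSPA1A and HSPA1B, the paired stress-inducible Hsp70 genes, had 92.1 and 117 CPM with atRAL plus EV, 499 and 637 CPM with atRAL, 125 and 161 CPM with EV, and 134 and 171 CPM in the control. They fell 5.42-fold and 5.46-fold (adjusted p = 1.4e-06 and 9.6e-07), though these near-identical copies may exchange reads and count as 1 signal. DNAJB1, the Hsp40 partner of Hsp70, had 165 CPM with atRAL plus EV and 332 CPM with atRAL (2.01-fold lower; adjusted p = 4.3e-05). Constitutive members moved less: HSP90AA1 had a log2 ratio of 0.10, HSP90AB1 of -0.06 and HSF1 itself of -0.18, and none of these was called. HSPA7, a pseudogene near-identical to HSPA6 that was named after its values were seen, had 6 counts with atRAL plus EV and 252 with atRAL, so reads may be split between it and HSPA6.

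The promoters of HSPA6 and HSPA1A are shown because these genes carry the heat shock result. They are the 250 bases before each RefSeq start (GRCh38.p14), with heat shock element matches in capitals. HSPA6 is at chr1:161524290-161524539 and HSPA1A at chr6:31815293-31815542, both on the plus strand.
HSPA6: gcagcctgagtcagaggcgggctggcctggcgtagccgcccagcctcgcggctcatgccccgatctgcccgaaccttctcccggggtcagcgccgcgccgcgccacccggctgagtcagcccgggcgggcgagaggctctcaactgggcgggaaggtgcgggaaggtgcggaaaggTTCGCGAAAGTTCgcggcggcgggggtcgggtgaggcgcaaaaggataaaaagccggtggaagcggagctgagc
HSPA1A: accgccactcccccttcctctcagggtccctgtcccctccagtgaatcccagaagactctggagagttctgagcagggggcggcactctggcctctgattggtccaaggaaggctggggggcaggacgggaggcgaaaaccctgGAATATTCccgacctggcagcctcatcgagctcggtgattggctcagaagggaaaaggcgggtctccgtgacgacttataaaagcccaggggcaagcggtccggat
The capitals in HSPA6 are a match to 3 alternating units (GAA, TTC, GAA, each followed by 2 free bases up to the next) and those in HSPA1A a 2-unit match to GAANNTTC, with both strands searched from 250 bases before to 50 after the start. The 2-unit form is contained in the 3-unit form. Of the 4 lowered genes, 3 had the 2-unit form and 1 the 3-unit form. Of 16 other members with a promoter in the table, 7 had the 2-unit form and 5 the 3-unit form. Over all 27305 promoters, 6.87% held the 2-unit form and 0.487% the 3-unit form. These matches describe letters and say nothing of binding.

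Immediate early genes are transcribed within minutes of a growth-factor or stress signal and usually fade soon after. Of 27 measured, 8 were at least 2-fold lower with vesicles at 6 h and 2 were higher, and the test called 13 lower and 4 higher; the median log2 ratio was -0.46. Beside FOS and ATF3, the genes that fell included the orphan nuclear receptors NR4A2 and NR4A3, at 2.13 and 3.13 CPM with both agents, against 9.37 and 13 CPM with atRAL. KLF4, a Krüppel-like factor, had 6.96 CPM with atRAL plus EV and 22.9 CPM with atRAL, and JUND, an AP-1 subunit, 115 and 281 CPM. The 2 that were at least 2-fold higher were CCN1 and CCN2, which are also targets of YAP.

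At 1 h the early genes were higher, not lower, with vesicles. With atRAL at 1 h, 14 of the 27 were at least 2-fold higher with vesicles and all 27 had a ratio above 0, with a median log2 ratio of 1.04. FOS had 49.1 CPM with atRAL plus EV and 5.26 CPM with atRAL at 1 h, and 42 CPM with EV and 2.19 CPM in the control. EGR3, an early zinc finger factor, had 371 CPM with atRAL plus EV and 30.5 CPM with atRAL at 1 h, against 5.86 and 7.96 CPM at 6 h. Of the 14 genes that were higher with vesicles at 1 h, 5 were at least 2-fold lower with vesicles at 6 h. The edgeR model has a single vesicle effect at 1 h, common to cells with and without atRAL. A contrast with it therefore mixes time with atRAL state. The test of the difference between the vesicle effect with atRAL at 6 h and that common effect called 19 of the 27 more negative at 6 h. It called 2 more positive. It gave log2 differences of -7.43 ± 0.54 (SE; adjusted p = 0.026) for FOS, -5.54 for ATF3, -5.01 for NR4A3 and -4.30 for EGR3.

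Sprouty genes and dual-specificity phosphatases, only some of which are induced by ERK and dampen it, were called in both directions. The list is therefore not a reading of ERK feedback alone. Of 18 measured Sprouty genes and dual-specificity phosphatases, 5 were called higher and 3 lower. SPRY4 had 38.9 CPM with atRAL plus EV and 18.1 CPM with atRAL, DUSP6 had 101 and 50.8 CPM, and DUSP5 had 93.1 and 51.9 CPM. Among the 3 lower ones, DUSP10 was at 15.9 CPM with atRAL plus EV and 52.5 CPM with atRAL and DUSP8 at 17.6 and 36.9 CPM. All of SPRY4, DUSP6, DUSP5, DUSP10 and DUSP8 were called (adjusted p from 1.2e-05 to 0.00079).

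YAP and its partners of the TEAD family drive genes that respond to cell shape, adhesion and tension. Of 22 measured targets and pathway members, 7 were at least 2-fold higher with vesicles and 0 lower, and the test called 13 higher and 0 lower. The median log2 ratio was 0.51 with atRAL, against -0.03 for the same genes between EV and control at 6 h. ANKRD1, an ankyrin-repeat cofactor gene used as a YAP reporter, had 651 CPM with atRAL plus EV, 143 CPM with atRAL, 767 CPM with EV and 701 CPM in the control. CCN2, connective tissue growth factor, had 232, 81.5, 502 and 763 CPM in the same order. The atRAL library was the lowest for both, and with vesicles ANKRD1 stood at 4.54-fold (4.44 to 4.64) and CCN2 at 2.85-fold (2.76 to 2.95) the atRAL level. FJX1 and AMOTL2, other targets, each had a log2 ratio of 1.49 and were called (adjusted p = 0.0015 and 6.1e-06), and TEAD1, one of the DNA-binding partners, had 0.18 and was not.

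The promoters of CCN2 and ANKRD1 are shown because both hold more than 1 match to the TEAD core among the raised genes. Each is the 250 bases before the RefSeq start (GRCh38.p14) on the minus strand, with GGAATG in capitals. CCN2 is at chr6:131951373-131951622 and ANKRD1 at chr10:90921088-90921337.
CCN2: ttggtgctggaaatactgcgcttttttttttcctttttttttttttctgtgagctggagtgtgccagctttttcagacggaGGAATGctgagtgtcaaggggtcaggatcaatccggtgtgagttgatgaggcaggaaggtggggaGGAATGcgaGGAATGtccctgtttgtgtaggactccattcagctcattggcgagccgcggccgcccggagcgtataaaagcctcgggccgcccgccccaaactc
ANKRD1: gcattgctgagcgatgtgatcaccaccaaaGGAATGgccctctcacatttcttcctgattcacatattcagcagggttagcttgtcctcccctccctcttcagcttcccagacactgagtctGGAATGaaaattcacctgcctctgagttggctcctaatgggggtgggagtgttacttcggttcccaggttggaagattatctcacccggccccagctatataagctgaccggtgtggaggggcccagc
The core GGAATG was searched on both strands from 250 bases before to 50 after the start. CCN2 held 3 matches and ANKRD1 held 2, and DKK1 held 1. Of the raised genes, 6 had a promoter in the table and 3 of them held the core, as did 4 of 11 other members and 14.0% of all 27305 promoters. A match is not a binding site.

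**Figure D3:**
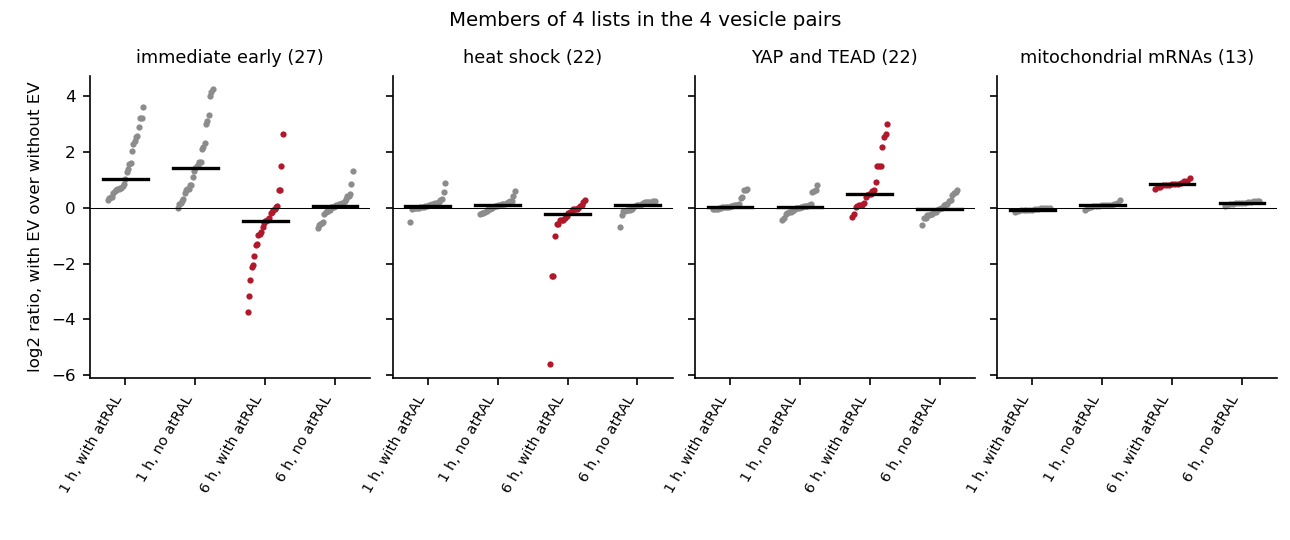
Log2 ratio with EV over without EV (vertical axis) for each measured member of 4 gene lists in the 4 vesicle pairs, at 1 h and 6 h, with and without atRAL; bars are medians over members and red points are the pair described here. The median of the 27 immediate early genes is 1.04 at 1 h and -0.46 at 6 h with atRAL, and that of the 13 mitochondrial mRNAs is 0.83 at 6 h with atRAL.

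Genes of the actin cytoskeleton, many of them targets of SRF, showed a smaller shift of the same sign. Of 23 measured, 21 had a ratio above 0, 0 were at least 2-fold apart and 7 were called higher, with 0 called lower. ACTB, cytoplasmic beta-actin, had 4619 CPM with atRAL plus EV, 2627 CPM with atRAL, 7299 CPM with EV and 7303 CPM in the control. VCL, vinculin of focal adhesions, had 868, 538, 1225 and 1192 CPM in the same order. In ACTB and VCL the 2 libraries with atRAL were below the 2 without, and the one with vesicles was the nearer to them. Of 20 matrix genes, 1 was called higher and 2 lower, beside 948 and 851 of the 12508 genes. COL1A1, a fibrillar collagen, had 118 CPM with atRAL plus EV and 206 CPM with atRAL.

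Stress programmes that respond to amino acid shortage, oxidation and reactive carbonyls were lower with vesicles by modest amounts. ATF4 is the transcription factor of the integrated stress response, which follows phosphorylation of eIF2α. Of 30 measured members of its programme, 2 had a ratio above 0, 2 were at least 2-fold lower, and 17 were called lower against 0 higher, with a median log2 ratio of -0.41. The lowest member, ATF3, is also counted among the immediate early genes. Lists share members, so their counts are not separate. SLC3A2, the heavy chain of amino acid transporters, had 456 CPM with atRAL plus EV, 855 CPM with atRAL, 132 CPM with EV and 113 CPM in the control. INHBE, an inhibin subunit gene, had 5.68 CPM with atRAL plus EV and 15.8 CPM with atRAL, and was at or near 0 without atRAL. DDIT4, an inhibitor of mTORC1, had 421 CPM with atRAL plus EV, 829 CPM with atRAL, 21.8 CPM with EV and 43.1 CPM in the control, and was not called (adjusted p = 0.16). SLC3A2, INHBE and DDIT4 were higher in both libraries with atRAL than in both without. The cytosolic aminoacyl-tRNA synthetases, several of which ATF4 also drives, did not share the fall, with 1 of 20 called in each direction and a median of -0.03.

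NRF2, released from KEAP1 when reactive compounds modify it, drives genes for glutathione, iron handling and quinone reduction. Of 28 measured targets, 5 were at least 2-fold lower and 0 higher, and the test called 17 lower and 1 higher; the median log2 ratio was -0.42. HMOX1, heme oxygenase 1, had 569 CPM with atRAL plus EV, 1147 CPM with atRAL, 30.5 CPM with EV and 32.3 CPM in the control (adjusted p = 0.00013). SQSTM1, the autophagy receptor p62, had 1434, 3005, 419 and 466 CPM in the same order (adjusted p = 3e-05). OSGIN1, an oxidative-stress growth inhibitor, had 25.1 CPM with atRAL plus EV and 65 CPM with atRAL. All of HMOX1, SQSTM1 and OSGIN1 were highest with atRAL alone, and both libraries with atRAL were above both without. AKR1B10 and AKR1C3, aldo-keto reductases that reduce carbonyls, were also at least 2-fold lower, but they belong to families of similar genes whose reads may be split. Enzymes outside that programme moved less. Among 21 other antioxidant enzyme genes, 1 was called lower (TXNIP, the thioredoxin-binding protein, at 23.5 CPM with atRAL plus EV and 41.4 CPM with atRAL). Among 22 aldehyde and carbonyl detoxification genes, ALDH1B1, a mitochondrial aldehyde dehydrogenase, was called higher, with 15.7 CPM with atRAL plus EV, 6.65 CPM with atRAL, 45.9 CPM with EV and 52.5 CPM in the control.

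Endoplasmic reticulum chaperones showed no such fall. Of 23 measured genes of the unfolded protein response, 1 was called higher (MANF, log2 ratio 0.49) and 1 lower (HERPUD1, -0.39), with a median of 0.11. Of 29 genes of autophagy and the lysosome, 8 were called lower and 1 higher. The lowest of these genes, SQSTM1, is also counted among the NRF2 targets. GABARAPL1, an autophagosome protein, had 86.7 CPM with atRAL plus EV and 159.6 CPM with atRAL, and ULK1, the kinase that starts autophagy, 88.9 and 161 CPM.

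The 13 protein-coding genes of the mitochondrial genome, listed here as mitochondrial mRNAs, were all called higher with vesicles. Their log2 ratios ran from 0.66 (ND3) to 1.07 (ND6), with a median of 0.83. They belong to the same genome, so they are not 13 independent signals. Together they summed to 38357 CPM with atRAL plus EV, 21635 CPM with atRAL, 58984 CPM with EV and 52638 CPM in the control. COX2, the mitochondrially encoded subunit of cytochrome c oxidase, had 3599 CPM with atRAL plus EV, 1842 CPM with atRAL, 6333 CPM with EV and 5808 CPM in the control. ND6, the complex I subunit encoded on the light strand, had 171, 81.5, 282 and 269.9 CPM in the same order. The strand setting of the counting is not given, so reads from the opposite strand may be in the ND6 value. Both libraries with atRAL at 6 h were below all 6 others, whose share of counts in mitochondrial mRNA was 5.42% to 5.97%, against 3.77% with atRAL plus EV and 2.18% with atRAL. That share can also move with RNA quality and with the recovery of mitochondrial RNA, whose part in the result was not tested. The 26 measured nuclear subunits of the respiratory chain did not move with them, with 0 called in either direction in the edgeR test and log2 ratios from -0.25 to 0.19. Of 19 nuclear genes for mitochondrial transcription and RNA handling, 3 were called higher, among them TWNK, the mitochondrial helicase, at 32.2 CPM with atRAL plus EV and 19 CPM with atRAL.

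Cytokine genes split. Of 18 measured NF-kB targets and cytokines, 4 were called higher and 3 lower, and the median log2 ratio was -0.20. CCL2, a monocyte chemokine, had 54.7 CPM with atRAL plus EV, 11.2 CPM with atRAL, 54.5 CPM with EV and 34.3 CPM in the control, a rise of 4.87-fold (4.5 to 5.31; adjusted p = 3.4e-07). IL1B, interleukin 1 beta, had 227 CPM with atRAL plus EV, 103 CPM with atRAL, 40.1 CPM with EV and 12.7 CPM in the control (2.21-fold; adjusted p = 0.027). IL1B was thus highest with both agents, whereas CCL2 was lowest with atRAL alone. IL6, interleukin 6, had 12.8, 5.18, 12.2 and 7 CPM in the same order (2.47-fold; adjusted p = 0.00032). CXCL2, a neutrophil chemokine, went the other way, at 0.694 CPM with atRAL plus EV and 2.59 CPM with atRAL.

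Growth factors were mostly higher, with 9 of 16 called higher and 2 lower, 6 at least 2-fold higher and a median of 0.46. FGF5, a fibroblast growth factor, had 119 CPM with atRAL plus EV, 32.3 CPM with atRAL, 151 CPM with EV and 109.9 CPM in the control. BDNF, a neurotrophin, had 37.9, 12.5, 41.1 and 38.9 CPM, and VEGFC, a growth factor of lymphatic vessels, 48.1, 17.4, 72.7 and 54.3 CPM. For FGF5, BDNF and VEGFC the atRAL library was low and the other 3 were near each other. AREG, an EGF receptor ligand, had 3.05 CPM with atRAL plus EV, 0.943 CPM with atRAL, 1.73 CPM with EV and 0.573 CPM in the control. HBEGF, another such ligand, had 92.6, 38.3, 25.7 and 13.1 CPM. In AREG and HBEGF vesicles went with a higher level both with and without atRAL.

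Genes of plasminogen activation and matrix breakdown were higher in part, with 8 of 19 called higher and 1 lower. After SERPINB2 and F3 came PLAT, tissue plasminogen activator, at 2353 CPM with atRAL plus EV, 1298 CPM with atRAL, 1355 CPM with EV and 741 CPM in the control. TFPI2, a Kunitz-type protease inhibitor, had 161 CPM with atRAL plus EV and 90.6 CPM with atRAL. In the BMP pathway, 5 of 18 genes were called higher and 3 lower. BMP2, a bone morphogenetic protein ligand, had 65.8 CPM with atRAL plus EV, 15 CPM with atRAL, 14.8 CPM with EV and 4.58 CPM in the control (4.39-fold; adjusted p = 6.1e-06). FST and GREM1, secreted antagonists of these ligands, were also called higher, with log2 ratios of 1.01 and 0.92. ID2, a transcriptional target of BMP signalling, had a log2 ratio of -1.03 and was called lower. Of 10 measured genes of the Notch pathway, 3 were called lower and 0 higher. They were led by HEY1, a transcriptional repressor within that pathway, at 1.28 CPM with atRAL plus EV and 4.33 CPM with atRAL.

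Sterol genes changed in part. SREBP2 drives cholesterol synthesis and uptake when sterol is short, and 9 of 23 such genes were called higher against 1 lower, with a median of 0.33. STARD4, a sterol carrier, had 40.8 CPM with atRAL plus EV and 19.3 CPM with atRAL (adjusted p = 7.6e-05). Liver X receptors drive sterol export, and 2 of 8 genes of that list were called lower and 0 higher, with a median of -0.45 that was -0.20 with 500 or more counts in either library and -0.66 with 20 or more. ABCA1, the exporter, had 176 CPM with atRAL plus EV, 372 CPM with atRAL, 53.2 CPM with EV and 43 CPM in the control (adjusted p = 3.3e-05). Of 24 genes of hypoxia and glycolysis, 1 was called higher and 3 lower: HK2, hexokinase 2, had 81.5 CPM with atRAL plus EV and 28.6 CPM with atRAL, while SLC2A1, a glucose transporter, had 474 and 805 CPM. Of 17 lipid storage and PPAR target genes, 1 was called higher (ANGPTL4, a lipase inhibitor, log2 ratio 0.89) and 3 lower.

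Among 26 measured regulators of apoptosis, 4 were called higher and 3 lower, and the 3 lower ones were all BH3-only genes, whose products promote cell death by binding the BCL2 family. BMF had 19 CPM with atRAL plus EV, 83.7 CPM with atRAL, 34.8 CPM with EV and 80.1 CPM in the control, so it was lower with vesicles in both pairs of 6 h. BCL2L11, also called BIM, had 6.62, 20.9, 7.34 and 13.2 CPM, and BBC3, also called PUMA, had 4.67, 13.2, 2.41 and 3.64 CPM. They fell 4.41-fold, 3.15-fold and 2.82-fold with atRAL (adjusted p = 3.4e-07, 3.2e-05 and 0.00068). BIRC3, an inhibitor of apoptosis, was called higher, at 4.78 CPM with atRAL plus EV and 2.17 CPM with atRAL. FOXO factors, which growth-factor signalling holds out of the nucleus, include BCL2L11 among their targets, and of 23 measured FOXO genes 7 were called lower and 1 higher. PIK3IP1, an inhibitor of PI3 kinase, had 2.86 CPM with atRAL plus EV and 8.22 CPM with atRAL, and FOXO1 itself 4.47 and 12.2 CPM. The higher one was CITED2, a transcriptional cofactor, at 65.7 CPM with atRAL plus EV and 25.7 CPM with atRAL. Of 26 p53 targets, 2 were called higher and 5 lower. The lowest of these targets, BBC3, is also counted among the regulators of apoptosis. CDKN1A, the cell cycle inhibitor p21, was called lower, at 227 CPM with atRAL plus EV and 349 CPM with atRAL.

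Cell cycle genes showed small differences, mostly upward. Of 28 genes of G1/S and DNA replication, 7 were called higher and 1 lower with a median of 0.16, and of 28 of G2/M and mitosis, 3 were called higher and 0 lower with a median of 0.09. In each list 22 of the 28 had a ratio above 0. CCND1, cyclin D1, had 1078 CPM with atRAL plus EV, 683 CPM with atRAL, 1144 CPM with EV and 871 CPM in the control. MKI67, the proliferation marker Ki-67, had 395, 266, 517 and 511 CPM. Circadian clock genes had a median of -0.51, and 8 of 17 were called lower against 0 higher. NR1D1, the repressor REV-ERBα, had 14.7 CPM with atRAL plus EV and 33.3 CPM with atRAL, and PER1, a period gene, 6.39 and 12.6 CPM. Among 19 mRNA decay factors 6 were called lower and 0 higher, with BTG2, a recruiter of the deadenylase, at 3.21 CPM with atRAL plus EV and 8.11 CPM with atRAL.

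Retinoid genes bear on the agent itself, since retinal can be oxidised to retinoic acid or reduced to retinol. Of 20 measured, 2 were called higher and 5 lower, with a median of 0.08. CYP26B1, which breaks down retinoic acid and is induced by it, had 29 CPM with atRAL plus EV, 92.3 CPM with atRAL, 5.03 CPM with EV and 7.3 CPM in the control (3.18-fold lower; adjusted p = 1.1e-05). DHRS3, which reduces all-trans-retinal to retinol, had 300.5 CPM with atRAL plus EV, 492 CPM with atRAL, 97.8 CPM with EV and 97.9 CPM in the control. RARA, a retinoic acid receptor, had 61.6 and 109.8 CPM with atRAL plus EV and with atRAL. CYP26B1 and DHRS3 were lower with vesicles than with atRAL alone, and in both libraries with atRAL they exceeded both without. DHRS9, a related dehydrogenase, had 3.34 CPM with atRAL plus EV and 2.05 CPM with atRAL and was not called (adjusted p = 0.15).

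**Figure D4:**
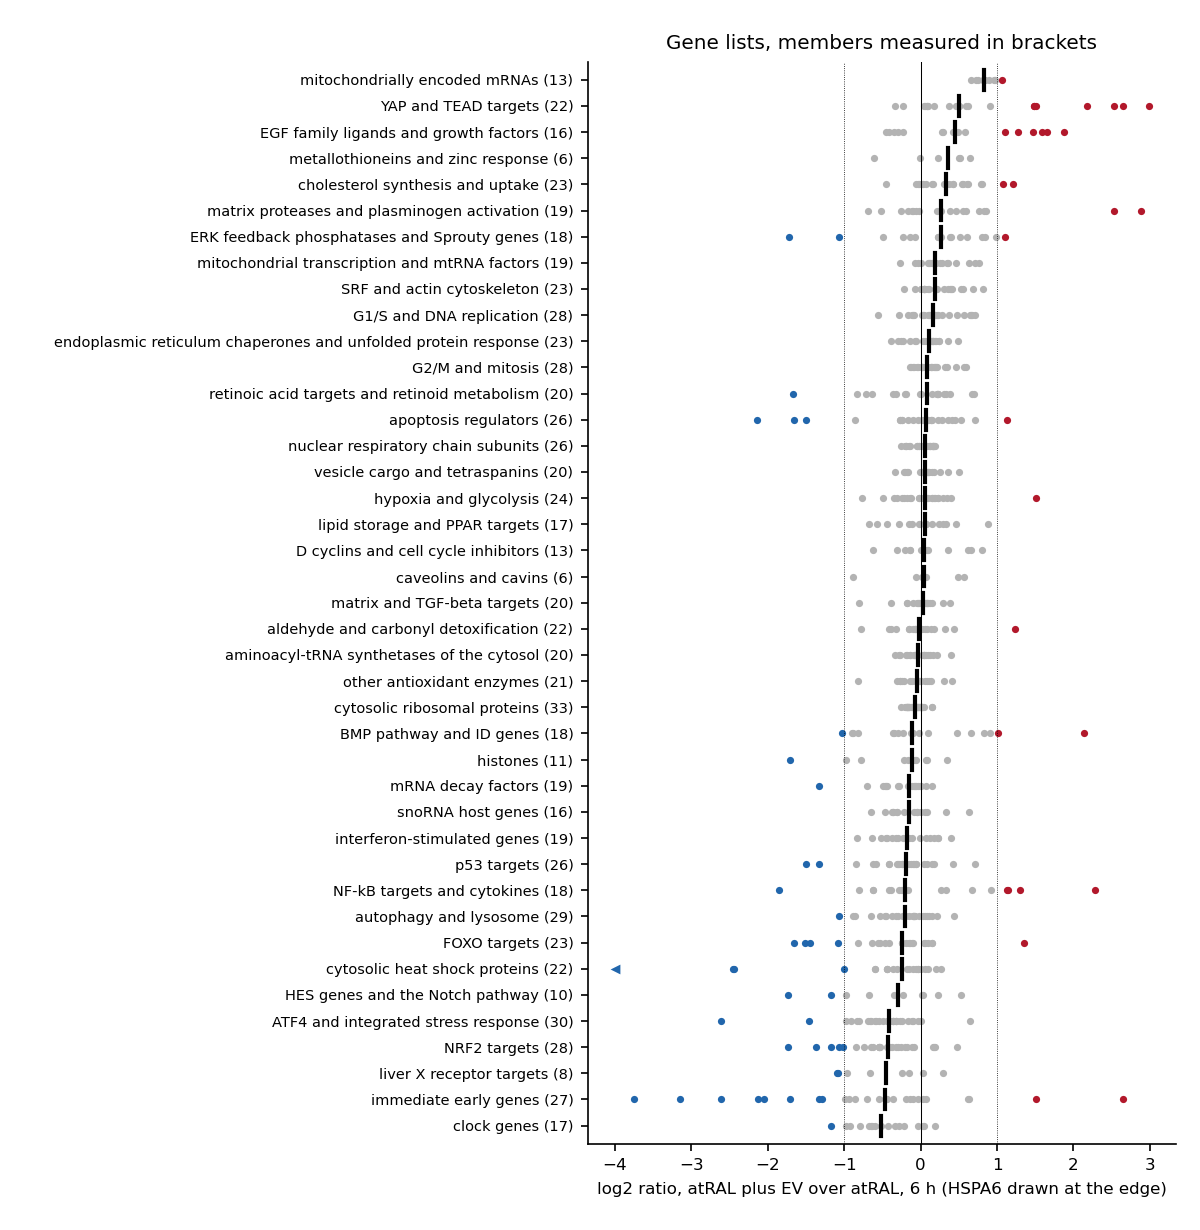
Log2 ratio of atRAL plus EV over atRAL at 6 h (horizontal axis) for each measured member of 41 gene lists, with the number of measured members in brackets; black bars are list medians, red and blue points are at least 2-fold apart, and HSPA6 (-5.61) is drawn as a triangle at the edge. Medians run from -0.51 (clock genes) to 0.83 (mitochondrial mRNAs), and 21 of the 41 lie above 0.

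The remaining lists ranged from level to partly changed. None of 33 cytosolic ribosomal protein genes was called by the edgeR test or differed 2-fold, with log2 ratios from -0.25 to 0.14. Of 20 vesicle cargo and tetraspanin genes, 2 were called higher and 0 lower, CD9 at 109 CPM with atRAL plus EV and 76.7 CPM with atRAL, and STAM, a sorting protein, at 71.3 and 55.4 CPM. Of 19 interferon-stimulated genes, 3 were called lower and 0 higher, with a median of -0.17. Of 6 metallothionein and zinc response genes, 3 were called higher and 1 lower, with a median of 0.37: MT2A stood at 1294 CPM with atRAL plus EV and 914 CPM with atRAL, and SLC30A1, a zinc exporter, was the lower one at 117 and 178 CPM. In all, 20 of the 41 list medians were below 0, and 10 were beyond 0.3 in either direction.

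Vesicles without atRAL at 6 h gave fewer differences. The 12508 genes were chosen by their counts in the atRAL plus EV and atRAL libraries of 6 h, which favours differences in that pair. Genes expressed mainly in other libraries are left out, and the same limit applies to the 1 h pairs below. How much this matters was not tested. EV against control had 75 genes at least 2-fold higher (0.6% of the same 12508) and 40 lower (0.32%), or 0.919% in all, and the edgeR test called 170 (0.997%) and 118 (0.692%), or 1.69% in all. The spread of log2 ratios over genes was 0.414 (SD) with atRAL and 0.273 without. The pairs share no library. Of the 152 genes higher with atRAL, 33 were also at least 2-fold higher without it, which is 21.7% of the 152 and 44% of the 75. Of the 191 lower genes, 17 were shared, 8.9% of the 191 and 42.5% of the 40. The sign was the same in 130 of the 152 and 147 of the 191, where 51.5% of all genes were above 0 and 48.5% below it without atRAL, and 2 of each were at least 2-fold apart in the opposite direction. Across the 12508 genes, which are not independent replicates, Pearson's r between the log2 ratios of the pairs was 0.439 and Spearman's rho 0.43.

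The difference between the vesicle effect with and without atRAL was tested gene by gene in the same edgeR model. It called 286 of 17044 genes (1.68%), 134 more positive with atRAL (0.786%) and 152 more negative (0.892%). Among the 12508 these were 121 and 138, and they included 62 of the 152 higher and 47 of the 191 lower genes. The 152 and 191 were chosen by the ratio with atRAL, which is part of this difference. A high share of calls among them is thus partly fixed in advance and adds no support. CCN1 had the log2 difference 2.84 ± 0.14 (SE; adjusted p = 2.1e-06), DKK1 2.47 ± 0.20 (5.6e-05), CCN2 2.09 ± 0.15 (3.8e-05) and F3 2.04 ± 0.14 (3.4e-05). On the negative side were HSPA6 at -4.95 ± 0.55 (0.00065), RRAD at -3.04 ± 0.27 (0.00013), NR4A3 at -2.96 ± 0.29 (0.00028) and NFATC2, a calcium-responsive transcription factor, at -2.74 ± 0.22 (6.6e-05). NFATC2 had 18.2 CPM with atRAL plus EV, 68.1 CPM with atRAL, 7.73 CPM with EV and 4.42 CPM in the control. SOCS1, a cytokine signalling inhibitor, and ARL14EPL, a gene of few counts, were called at -2.65 and -3.35. Of the 16 genes with the highest and lowest called differences, 2 kept the call under every alternative (HSPA6 and NFATC2). Taking a 1 h effect as spread counts any true response at 1 h as noise, so genes that respond then lose calls more readily. CCN1, CCN2, F3, RRAD and NR4A3 lost it with the 1 h EV effect taken as spread, and CCN2, RRAD, NR4A3 and DKK1 with the 1 h atRAL effect. In the order CCN1, CCN2, F3, RRAD, NR4A3 and DKK1 they had adjusted p of 0.51, 0.67, 0.60, 0.62, 0.89 and 0.51 in edgeR as the highest over their alternatives. SERPINB2 was as much higher without atRAL as with it, and its difference, 0.22 ± 0.21, was not called (adjusted p = 0.78).

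By list, the difference test called 9 of 22 YAP and TEAD genes more positive with atRAL and 0 more negative, 5 of 23 actin and SRF genes and 5 of 13 mitochondrial mRNAs more positive and 0 more negative. In the same test 5 of 22 heat shock genes, 5 of 28 NRF2 targets and 5 of 30 ATF4 genes were called more negative and 0 more positive. Of 27 immediate early genes it called 9 more negative and 2 more positive. Over the 12508 genes it called 121 more positive and 138 more negative. With the 1 h EV effect taken as spread, the calls over all 17044 tested genes went from 134 and 152 to 51 and 32. CCN1, CCN2, F3 and DKK1 of the YAP list each lost the call under an alternative, so these list counts depend on the choice of spread. The median log2 ratio without atRAL was 0.49 for NF-kB targets and cytokines and 0.35 for the protease list, and under 0.3 either way for the lists of YAP targets, heat shock, NRF2, ATF4 and mitochondrial mRNAs.

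**Figure D5:**
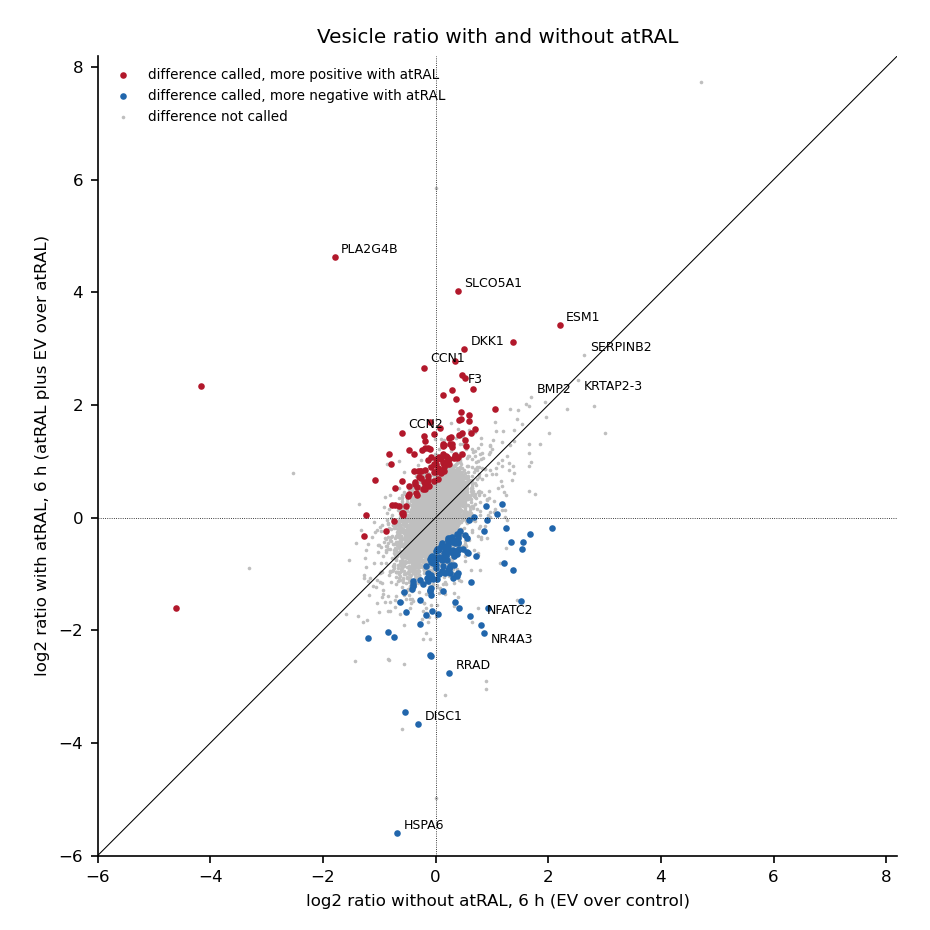
Log2 ratio of atRAL plus EV over atRAL at 6 h (vertical axis) against that of EV over control at 6 h (horizontal axis), 1 point per gene, with the line of equality. Red and blue points are the 121 and 138 genes whose difference was called; CCN1, DKK1, F3 and CCN2 lie above the line, HSPA6, RRAD and NR4A3 below it, and SERPINB2 close to it.

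Both atRAL libraries were set against the same control at 6 h, so those values share a library and are only given side by side. Over the 12508 genes, atRAL plus EV against control had 521 genes at least 2-fold higher (4.17%) and 285 lower (2.28%), or 6.44% in all, and atRAL against control had 687 (5.49%) and 392 (3.13%), or 8.63% in all. The median log2 ratio of the ATF4 list was 2.29 with atRAL plus EV against control and 2.84 with atRAL against control. For YAP and TEAD targets these were -0.34 and -0.68, for immediate early genes 0.90 and 1.35, and for mitochondrial mRNAs -0.34 and -1.09. For heat shock proteins they were 0.04 and 0.37.

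At 1 h the vesicle pairs overlapped less with the 152 higher genes, and in part with the 191 lower ones. With atRAL at 1 h, 57 genes were at least 2-fold higher (0.456%) and 15 lower (0.12%), or 0.576% in all, and of these 5 and 5 were also among the 152 and 191, or 3.29% and 2.62% of those. The shared genes were 8.77% of the 57 and 33.3% of the 15, and 3 of the 152 and 13 of the 191 were at least 2-fold apart in the opposite direction. Without atRAL at 1 h, EV against control had 69 higher (0.552%) and 27 lower (0.216%), or 0.768% in all. Of these, 7 and 7 were shared, 10.1% of the 69 and 25.9% of the 27, against 4.61% of the 152 and 3.66% of the 191. The difference between these overlaps and those at 6 h was not tested. Pearson's r over genes was -0.0616 with the 1 h pair with atRAL and -0.0111 with the 1 h pair without. The test of the vesicle effect with atRAL at 6 h against the vesicle effect at 1 h called 1156 genes (6.78%), 549 more positive at 6 h (3.22%) and 607 more negative (3.56%). ESM1 had the log2 difference 3.07, DKK1 3.11, KRT34, a hair keratin, 2.29 and TMEFF1, a transmembrane protein, 2.43. HSPA6 had -5.30. The median log2 ratio at 1 h with atRAL was 0.04 for YAP and TEAD targets, 0.08 for heat shock proteins, 0.04 for NRF2 targets and -0.07 for mitochondrial mRNAs.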

How the data were processed

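RNA from 8 libraries of RPE-1 cells, 1 per condition, was prepared with a stranded poly(A) kit, per the labels' protocols. HISAT2 2.1.0, StringTie 2.1.3b and the build GRCh38 are named in the submitters' processing notes, without roles. The authors deposited raw read counts per gene, and FPKM values, per the file headers, and 8 other columns of per-sample values (TPM) were not used. Symbols were matched to a RefSeq table for 44698 of 46427 genes.

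Counts were scaled with TMM factors (edgeR 4.0.16, limma 3.58.1, R 4.3.3), and log2 ratios of CPM used a prior count of 2. Exact conditional binomial intervals (95%) cover counting error only. A floor of 3 counts in place of 0 was used only for the lower bounds given for PP7080 and HLA-G. The edgeR quasi-likelihood model had 7 coefficients and 1 residual degree of freedom, tested 17044 genes after filtering and left out 29383, with Benjamini-Hochberg adjustment over all tested and a threshold of 0.05. The model was also run on simulated counts, after the fit of the real data and with the spread of that fit. The simulation gave every gene and library the same spread, so it cannot check whether libraries of 6 h vary like those of 1 h. DESeq2 1.42.0, limma-voom, other scalings, filters, prior counts and the deposited FPKM were alternatives. Tables and figures used Python 3.11.15, pandas 2.3.3 and matplotlib 3.10.9.

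Genes were named by rule: the 12 highest and 12 lowest ratios, up to 4 members per list with the largest ratio in size, and the 8 highest and 8 lowest called values of the fit and of the difference tests. HSPA7, HSF1, HSP90AA1, HSP90AB1, NR4A2, KLF4, JUND, DUSP5, TEAD1, AMOTL2, FJX1, HBEGF, HMOX1 and ND3 fall outside it and were chosen after their values were seen. The comparison, its members and the 41 pathway and 6 marker lists were chosen with earlier results of these data known.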

Additional observations from a re-analysis of the deposited data

Results flagged for a closer look

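For 16 genes the vesicle effect at 6 h differed with and without atRAL in the edgeR test of that difference, and they are the 8 highest and 8 lowest called log2 differences. More positive with atRAL were PLA2G4B (7.11), CRYBB3 (6.89), SLCO5A1 (3.92), CCN1 (2.84), MIR17HG (2.49), DKK1 (2.47), CCN2 (2.09) and F3 (2.04). More negative with atRAL were HSPA6 (-4.95), DISC1 (-3.49), ARL14EPL (-3.35), CCDC180 (-3.15), RRAD (-3.04), NR4A3 (-2.96), NFATC2 (-2.74) and SOCS1 (-2.65). CRYBB3, a crystallin gene, had 0.565 CPM with atRAL plus EV, 1.78 CPM with atRAL, 0 with EV and 0.75 CPM in the control, so its fitted difference rests on a library at 0 and is no bound. Of these 16 calls, 13 were lost with the 1 h EV effect taken as spread, 8 with the 1 h atRAL effect, 6 with DESeq2, 6 with no filter and 4 with limma-voom, and 2 (HSPA6 and NFATC2) were kept under all of them.

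For a further 16 gene results the vesicle effect with atRAL at 6 h differed in the edgeR test from the 1 h vesicle effect. The latter is common to both atRAL states in that model. More positive at 6 h were PLA2G4B (11.9), MIR34AHG (9.61), DKK1 (3.11), ESM1 (3.07), KTI12 (2.48), TMEFF1 (2.43), KRT34 (2.29) and MIR17HG (2.25). More negative at 6 h were FOS (-7.43), TNFRSF9 (-6.62), SLCO5A1 (-6.04), ATF3 (-5.54), HSPA6 (-5.30), NR4A3 (-5.01), CCDC180 (-4.44) and EGR3 (-4.30). PLA2G4B, MIR34AHG, TNFRSF9 and SLCO5A1 each had at least 1 library at 0 at 1 h, so these fitted values depend on the fit and are no bound. MIR34AHG, the host transcript of miR-34a, had 0 with atRAL plus EV and 3.62 CPM with atRAL at 1 h, and 2.74 and 6.2 CPM at 6 h, where it was lower with vesicles as well. Of these 16 calls, 9 were kept under every alternative, and FOS (adjusted p = 0.077), EGR3, DKK1 and PLA2G4B lost theirs with the 1 h atRAL effect taken as spread.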

How the results depend on the processing

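The counts of genes at least 2-fold higher and lower (152 and 191) moved most with the count threshold and the fold. They were 310 and 494 with 20 or more counts in either library, 85 and 81 with 500 or more, 1659 and 1698 with at least 1, 608 and 650 at a fold of 1.5, and 39 and 53 at a fold of 3. On log2(FPKM + 1) they were 58 and 63, and without genes that overlap another, an alternative chosen after seeing the data, 56 and 85. The median of all genes lay between -0.031 and 0.028 under every scaling, pseudocount and filter tried. The 1896 genes called in the borrowed-spread fit became 686 with DESeq2, 891 with no filter beyond 1 count and 1259 with the 1 h EV effect taken as spread. The 286 calls of the difference with and without atRAL became 165, 87 and 83 in the same order, and the 1156 calls of 6 h against 1 h became 419 with DESeq2 and 474 with no filter. Of 195 named genes, 52 changed from called to not called with the 1 h EV effect as spread, 35 with no filter, 32 with DESeq2 and 30 with the 1 h atRAL effect as spread. Of the 16 named differences with and without atRAL, 13 lost the call with the 1 h EV effect as spread. All 10 list medians beyond 0.3 kept their sign under every alternative, while 8 smaller ones changed it, the largest being the Notch list (-0.29, with a range of -0.51 to 0.03). No direction of a called value reversed. The cause of these shifts was not tested. No paired analysis was possible because each condition has 1 library and the labels give no replicate numbers. Leaving out a library was not possible either, since a condition would be lost at 6 h and the residual degree of freedom at 1 h. Genes with few counts in a library, such as HLA-G, PP7080 and CCDC180, are limited by depth.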
